A study of Mus musculus with 9 samples.

Results

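The genes described here are 44 genes of DNA replication and nucleotide synthesis, named one by one by their known roles and not by a measured value. Of the 44 genes, 43 were named by at least 1 probe set among the 18193 genes that the arrays named with a single symbol, and 42 of the 11796 genes tested were members. Chaf1a was not named by a probe set with a single symbol in the annotation used. Tyms, the thymidylate synthase, had 4 probe sets of its own, none of which was called present on all 3 arrays of any day, so its level is not given. A probe set is a group of short probes against 1 transcript, and the detection call states whether its signal stood above that of mismatched probes. Of the 42 members tested, 39 were called present on all 9 arrays. RNA came from the stromal vascular fraction (SVF), the cell suspension of progenitors, vessel cells and leukocytes that enzymatic digestion of adipose tissue leaves once adipocytes have floated off. The SVFs were taken from subcutaneous fat of wild-type BALB/c mice of 10 weeks on day 0, day 1 and day 3 after priming, with 3 individual mice and 3 arrays for each day. The sample labels name priming and the days after injury. In the study's methods priming is mincing of the fat together with ligation of its feeding artery, and day 0 served as the nonprimed baseline, and sham-operated mice of days 1 and 3 were not analysed here.

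A cell copies its DNA once in each S phase. Origins are licensed when ORC, Cdc6 and Cdt1 load the MCM helicase, Cdc45 and the GINS complex then turn the loaded MCM ring into the active helicase, and primase and the polymerases copy the opened strands behind it with the sliding clamp PCNA. Ribonucleotide reductase and the thymidine enzymes supply the nucleotides, and many of these genes are transcribed at the start of S phase under E2F factors. The mature cells of adipose tissue rarely divide, and tissue repair is a setting in which stromal and blood-derived cells enter the cycle.

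All values are MAS5 signals, a linear measure scaled by the authors so that the trimmed mean of each array was 500. An array had 24106 to 26299 present calls among 45101 probe sets, and arrays of the same day correlated at 0.971 to 0.988, against 0.902 to 0.971 for arrays of different days. Changes are log2 differences with limma's standard error from 1 fit of all 9 arrays, with Benjamini-Hochberg adjustment of p over all 11796 genes. A gene is called higher or lower where the adjusted p was under 0.05. The comparisons share arrays, since day 0 enters both comparisons with the baseline and day 3 enters 2 of the 3. The median log2 difference over all genes tested was -0.13 on day 1 and -0.03 on day 3 against day 0.

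On day 3 after priming, 18 of the 42 members were higher than on day 0 and 0 were lower. Across all genes tested, 13.6% were higher and 12.5% were lower in the same comparison. The median log2 difference of the members was 0.30, beside -0.03 for all genes, and it was positive for 35 of 42 members. At unadjusted p under 0.05 in limma, 23 members were higher and 2 were lower. The share of all genes at that limit is not given here, so these 2 counts cannot be set against a background. Of the 18, 6 changed at least 2-fold (Tk1, Gins2, Rrm2, Gins1, Uhrf1 and Cdc45), where 4.44% of all genes tested were called and 2-fold higher and 3.48% were called and 2-fold lower. Signals of the 3 day 3 mice all lay above those of the 3 day 0 mice for 24 members, against 22.6% of all genes, and all below them for 3 members, against 24.6% of all genes.

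On day 1 fewer members were called, with 4 higher than on day 0 (Gins2, Gins1, Cdc45 and Prim2) and 1 lower (Dut). Of all genes tested, 10.7% were higher and 17.9% were lower on day 1, so the share of members called was not above the background in either direction with the deposited scaling. Centring of the arrays on their medians gave 13 members higher than on day 0 and 0 lower. That scaling also moved the median of all genes on day 1 from -0.13 to 0.13 (log2). The share of all genes called under it is not given here, so the 13 cannot be set against a background. Leaving out single arrays gave 3 to 7 members higher and 0 to 6 lower. Of the 4, Gins2 alone was at least 2-fold higher, where 3.65% of all genes were called and 2-fold higher and 3.36% lower. The day 1 mice lay wholly above the day 0 mice for 8 members (13.8% of all genes) and wholly below them for 3 (26.1% of all genes). All 4 members higher on day 1 were also higher on day 3 against day 0. Between the primed days, 17 members were higher on day 3 than on day 1 and 0 were lower, beside 9.66% of all genes higher and 4.54% lower. At unadjusted p under 0.05, limma gave 21 members higher and 1 lower, again without a share of all genes to set beside them. Tk1 and Rrm2 were at least 2-fold higher on day 3 than on day 1, where 2.08% of all genes were called and 2-fold higher and 1.6% lower. The day 3 mice lay wholly above the day 1 mice for 23 members (23.4% of all genes) and wholly below for 2 (11.5% of all genes). Of the 17, 12 were among the 18 members higher on day 3 than on day 0, and 5 were called against day 1 alone (Mcm3, Mcm4, Pole, Dut and Dnmt1). Pole passed the filter on presence only through day 3, where it was high. Under the alternatives 12 of the 17 lost the call at least once, and with arrays centred on their medians 5 of 17 calls were left (Gmnn, Rrm1, Rrm2, Tk1 and Uhrf1). In all, 19 of 42 members were called in no comparison.

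The median member, set against its own day 0 mean, lay at 0.08, -0.03 and -0.001 in the day 0 mice, at 0.10, 0.01 and 0.05 in the day 1 mice and at 0.34, 0.29 and 0.38 in the day 3 mice (log2). The 3 day 3 mice stood above all others by this measure, while the day 1 mice overlapped with the day 0 mice. Within each array the members spread widely, and on day 3 they reached from -0.54 in the lowest member of any mouse to 2.17 in the highest. The plot of changes against day 0 shows this spread by role.

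**Figure D1:**
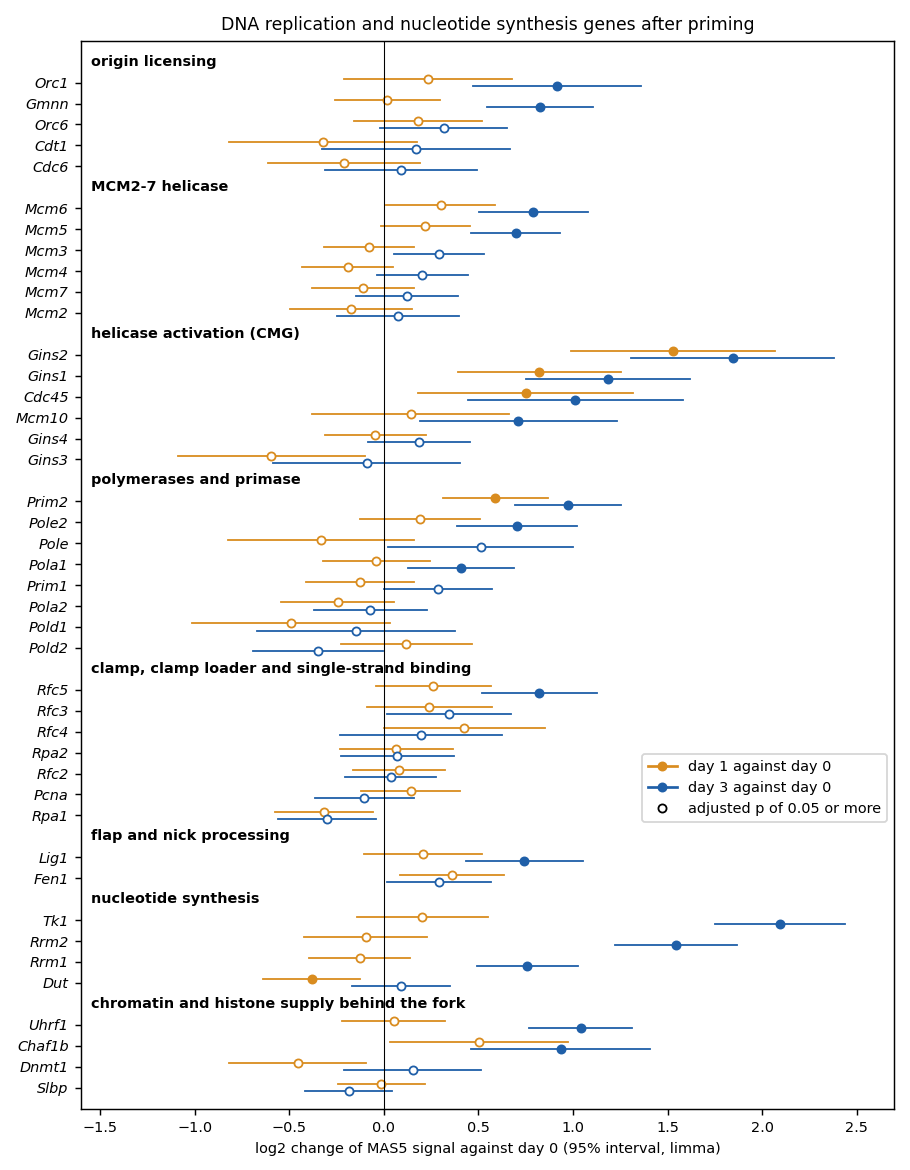
Log2 change of the MAS5 signal against day 0 for the 42 members tested, by role, on day 1 (orange) and day 3 (blue), with the 95% interval from limma over 3 mice a day. Filled points passed an adjusted p of 0.05. On day 3, 18 members were higher and 0 lower, with Tk1 and Gins2 farthest to the right, and on day 1 only Gins2, Gins1, Cdc45, Prim2 and Dut passed.

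The promoters of 36 members were matched by symbol in a RefSeq table on the mouse build GRCm38.p6, which gives 250 bases before and 50 after each start. The members not matched were Prim2, Mcm4, Rfc2, Gins1, Gmnn, Gins2, Gins4 and Pole. An exact match, on either strand, to 1 of the 5 E2F-type motifs TTTCCCGC, TTTGGCGC, TTTCGCGC, TTTGCCGC and TTTCCCGG was found in 15 of the 36 members (41.7%). It was found in 3.99% of all 27025 genes of the table and in 6.84% of the 9539 tested genes in it. Counted by promoter, 34.1% of 44 member promoters and 3.48% of all 32851 promoters held a match. Of the members with a promoter in the table, 7 of 14 that were higher on day 3 held a match, and so did 8 of the 20 other tested members. TTTCCCGC was in 0 of those 14 and in 6 of those 20, while TTTCGCGC was in 5 and in 3. TTTGCCGC and TTTCCCGG were in 0 member promoters. The CCAAT box (CCAAT) was in 63.9% of members, 42.5% of tested genes and 41.1% of all genes, and the CHR element (TTTGAA) in 16.7%, 14.4% and 20.2%. These matches describe letters in the window and do not show that a factor binds.

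Printed here are 5 promoters, chosen after the matches were seen: those of the members with the largest changes on day 3 against day 0 among the 36 in the table (Tk1 and Rrm2, since Gins2, whose change lay between theirs, was not matched), of the members higher on day 3 than on day 0 with the most matches (Mcm6 and Mcm5), and of Rfc3, which with Mcm7 held the most matches among the members called in no comparison. Each runs 5′ to 3′ along the gene, and capitals mark the E2F-type matches. They lie at chr11:117825965-117826264 on the minus strand, chr12:24708004-24708303 on the plus strand, chr1:128359656-128359955 on the minus strand, chr8:75109259-75109558 on the plus strand and chr5:151651159-151651458 on the minus strand.
Tk1: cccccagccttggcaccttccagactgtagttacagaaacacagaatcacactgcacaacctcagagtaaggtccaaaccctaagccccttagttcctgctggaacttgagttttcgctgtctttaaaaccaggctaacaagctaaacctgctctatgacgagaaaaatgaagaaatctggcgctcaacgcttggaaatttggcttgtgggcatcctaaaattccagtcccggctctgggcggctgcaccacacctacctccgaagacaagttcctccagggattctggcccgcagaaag
Rrm2: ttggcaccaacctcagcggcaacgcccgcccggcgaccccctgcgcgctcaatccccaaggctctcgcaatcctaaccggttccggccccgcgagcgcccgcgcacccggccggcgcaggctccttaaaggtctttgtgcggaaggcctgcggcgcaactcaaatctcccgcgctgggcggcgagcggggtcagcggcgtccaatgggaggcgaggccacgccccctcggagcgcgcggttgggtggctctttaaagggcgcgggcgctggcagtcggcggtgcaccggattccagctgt
Mcm6: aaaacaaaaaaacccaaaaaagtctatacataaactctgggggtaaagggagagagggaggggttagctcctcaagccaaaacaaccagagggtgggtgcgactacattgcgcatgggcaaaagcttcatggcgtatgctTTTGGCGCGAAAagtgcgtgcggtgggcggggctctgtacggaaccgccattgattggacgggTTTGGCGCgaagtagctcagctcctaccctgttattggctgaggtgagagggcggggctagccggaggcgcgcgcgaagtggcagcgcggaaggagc
Mcm5: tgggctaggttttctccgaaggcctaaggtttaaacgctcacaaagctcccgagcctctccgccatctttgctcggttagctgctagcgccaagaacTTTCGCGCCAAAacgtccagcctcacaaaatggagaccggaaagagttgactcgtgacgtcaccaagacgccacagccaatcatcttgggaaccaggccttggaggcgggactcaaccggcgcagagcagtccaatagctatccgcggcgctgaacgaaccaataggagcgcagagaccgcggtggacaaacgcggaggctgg
Rfc3: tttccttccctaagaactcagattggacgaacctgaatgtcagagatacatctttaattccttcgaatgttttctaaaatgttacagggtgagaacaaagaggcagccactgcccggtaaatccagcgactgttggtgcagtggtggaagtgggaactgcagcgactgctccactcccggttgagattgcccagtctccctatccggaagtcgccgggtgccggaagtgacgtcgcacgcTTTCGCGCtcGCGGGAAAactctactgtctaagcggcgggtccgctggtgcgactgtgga

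Tk1 and Rrm2 held 0 matches in this window. Mcm6 held 3 matches, of which the first pair overlaps by 4 bases on opposite strands and the third begins 47 bases before the start. Mcm5 held 2 matches on opposite strands that overlap by 4 bases, the first beginning 153 bases before the start. Rfc3 held 2 that lie to either side of the start, and Mcm7 also held 2. Of the 22 matches in member promoters, 13 began within 100 bases before to 50 after the start.

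**Figure D2:**
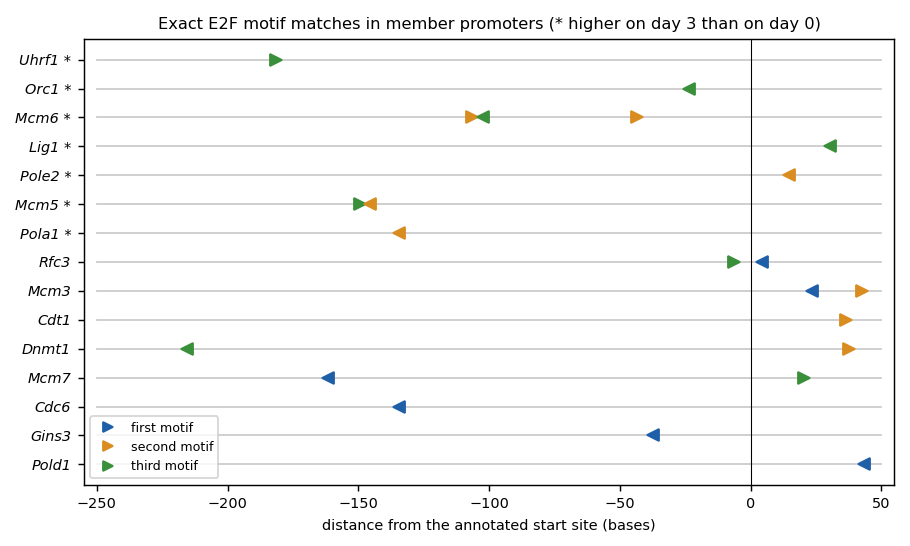
Positions of the 22 exact E2F-type matches in the promoters of 15 members, ordered by the change on day 3 against day 0, against the distance from the annotated start site in bases. Arrowheads point along the strand of the match, colours give the motifs in the order in which the text lists them, and stars mark the 7 members higher on day 3 than on day 0.

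Among the nucleotide enzymes, 3 of 4 members tested were higher on day 3 than on day 0, and all 4 were higher on day 3 than on day 1. Of all genes tested, 13.6% and 9.66% were higher in these comparisons. Tk1, the cytosolic thymidine kinase that salvages thymidine in S phase, had signals of 201, 218 and 176 on day 0, 259.6, 243 and 187 on day 1 and 845, 892 and 796 on day 3. The day 3 mice stood clear of all others, and day 1 overlapped with day 0. The change of Tk1 was 2.09 ± 0.16 (adjusted p = 5.27e-06) on day 3 against day 0, and its difference on day 1 was 0.20 ± 0.16 (adjusted p = 0.343). Rrm2, the S-phase subunit of ribonucleotide reductase, had signals of 948, 665 and 841 on day 0, 805, 659.9 and 816 on day 1 and 2439, 2436 and 2212 on day 3. Its day 3 signals were again all above those of both other days, with a change of 1.54 ± 0.15 (adjusted p = 3.09e-05) against day 0 and 1.64 ± 0.15 (adjusted p = 0.000101) against day 1. Rrm1, the large subunit of the same enzyme, changed by 0.76 ± 0.12 (adjusted p = 0.00104) on day 3 against day 0. Dut, which removes dUTP before it can enter DNA, had signals of 804, 856 and 898 on day 0, 599, 720.4 and 647 on day 1 and 882, 895 and 945 on day 3. It was the 1 member lower on day 1, with a change of -0.38 ± 0.12 (adjusted p = 0.0322), with no overlap between the days, and on day 3 it lay at 0.09 ± 0.12 (adjusted p = 0.612) against day 0. The call of Dut on day 1 was lost without any of 5 single arrays and under both other scalings, where the change was -0.28 with quantile normalization and -0.12 with median centring.

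The factors that turn the loaded MCM ring into the working helicase held 3 of the 4 members called higher on day 1. Of 6 members in the group, 3 were higher on day 1 and 4 on day 3 against day 0, beside 10.7% and 13.6% of all genes tested. Between day 3 and day 1, 0 were called by limma, beside 9.66% of all genes higher and 4.54% lower. There 2 were higher at an unadjusted p under 0.05, a limit for which the share of all genes is not given. Gins2, a subunit of the GINS complex, had signals of 135, 119 and 92.0 on day 0, 405, 405 and 215 on day 1 and 459.9, 371 and 399.9 on day 3. Mouse 3 of day 1 lay between the day 0 mice and the other day 1 mice, and both primed days stood above day 0 without overlap. The change was 1.53 ± 0.25 on day 1 against day 0, with an adjusted p of 0.00122, and 1.84 ± 0.25 on day 3 against day 0, with an adjusted p of 0.000304. Gins1, another GINS subunit, had signals of 131, 95.3 and 129 on day 0, 235, 202 and 187 on day 1 and 274, 316 and 218 on day 3. It was higher without overlap on both days, by 0.82 ± 0.20 on day 1 against day 0, with an adjusted p of 0.0112, and 1.18 ± 0.20 on day 3 against day 0, with an adjusted p of 0.00135. Cdc45, which binds MCM and GINS in the helicase, had signals of 194, 107 and 160.1 on day 0, 326, 273 and 178 on day 1 and 349, 296 and 265 on day 3. On day 1 the days overlapped through mouse 3, and the change was 0.75 ± 0.26 (adjusted p = 0.0495). On day 3 there was no overlap, and Cdc45 was higher by 1.01 ± 0.26 (adjusted p = 0.0147). The day 1 call of Cdc45 was lost without any 1 of 7 arrays and its day 3 call without mouse 2 of day 0 (adjusted p = 0.0552) or mouse 1 of day 3 (adjusted p = 0.0635).

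The remaining GINS subunits were not called. The log2 difference of Gins3 was -0.60 ± 0.23 on day 1 and -0.09 ± 0.23 on day 3 against day 0, and that of Gins4 was -0.04 ± 0.12 on day 1 and 0.19 ± 0.12 on day 3. Mcm10, which helps to activate the helicase, was higher on day 3 by 0.71 ± 0.24 (adjusted p = 0.0461). That call was lost without any 1 of 5 arrays.

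Of the 6 subunits of the MCM helicase, 2 were higher on day 3 than on day 0 and 4 were higher on day 3 than on day 1. All 6 differences were positive in both comparisons, in which 13.6% and 9.66% of all genes tested were higher. Mcm6 had signals of 1014, 886 and 805 on day 0, 1245, 1019 and 1066 on day 1 and 1414, 1650.2 and 1599 on day 3. Its 3 days did not overlap, and the change on day 3 against day 0 was 0.79 ± 0.13 (adjusted p = 0.00136). Mcm5 had signals of 1487, 1267 and 1340.1 on day 0, 1542, 1616 and 1597 on day 1 and 2115, 2172 and 2338 on day 3. These too lay in separate ranges on the 3 days, and day 3 was higher than day 0 by 0.70 ± 0.11 (adjusted p = 0.000797). Mcm3 had signals of 1127, 1025 and 1070.5 on day 0, 1017, 967 and 1070.0 on day 1 and 1312, 1249.9 and 1386 on day 3. Day 3 lay above the other days, with a difference of 0.29 ± 0.11 (adjusted p = 0.0677) against day 0, not called, and a change of 0.37 ± 0.11 (adjusted p = 0.0422) against day 1. Mcm4 was higher by 0.39 ± 0.11 (adjusted p = 0.0344) on day 3 than on day 1. Mcm2 and Mcm7, whose proteins sit in the same ring, were not called on day 3 against day 0, with differences of 0.08 ± 0.15 and 0.12 ± 0.12 and 95% intervals of -0.25 to 0.40 and -0.15 to 0.39.

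Of the 5 licensing genes, Orc1 and Gmnn were higher on day 3 than on day 0, beside 13.6% of all genes tested. Orc1, a subunit of the origin recognition complex, had signals of 112, 85.8 and 96.6 on day 0, 144, 95.3 and 109.6 on day 1 and 175, 194 and 183 on day 3. Its day 3 mice stood above the others, and the change against day 0 was 0.92 ± 0.20 (adjusted p = 0.00693). Gmnn encodes geminin, which binds Cdt1 and blocks relicensing in the same S phase, and had signals of 531, 510.4 and 533 on day 0, 459, 582 and 562 on day 1 and 937, 877 and 978 on day 3. Day 1 overlapped with day 0, and day 3 was higher by 0.83 ± 0.13 (adjusted p = 0.00081) against day 0. Cdc6, Cdt1 and Orc6, which load MCM with Orc1, had differences of 0.09 ± 0.18, 0.17 ± 0.23 and 0.32 ± 0.15 on day 3 against day 0 and were not called.

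Among 8 genes of the polymerases and primase, 3 were higher on day 3 than on day 0, beside 13.6% of all genes tested. Prim2, the large subunit of primase, had signals of 311, 293 and 262 on day 0, 463, 438 and 400.3 on day 1 and 577, 558 and 559.7 on day 3. The 3 days lay in separate ranges, and Prim2 was higher by 0.59 ± 0.13 on day 1 against day 0, with an adjusted p of 0.00669, and 0.97 ± 0.13 on day 3 against day 0, with an adjusted p of 0.000262. Pole2, a subunit of polymerase epsilon, had signals of 525, 476 and 466 on day 0, 584, 567 and 523 on day 1 and 927, 829.5 and 655 on day 3. Day 3 stood clear of day 0, with a change of 0.70 ± 0.14 (adjusted p = 0.00454). Pole, the catalytic subunit of the same polymerase, had signals of 189, 162 and 154 on day 0, 124, 100.03 and 191 on day 1 and 246, 252 and 219.8 on day 3. It was called present on 6 of 9 arrays, 2 of day 0, 1 of day 1 and 3 of day 3. Pole was higher on day 3 than on day 1 by 0.84 ± 0.22 (adjusted p = 0.0287), and against day 0 the difference was 0.51 ± 0.22 (adjusted p = 0.117). It entered the test only through day 3, where it was high, so the filter favoured this call. Pola1, the catalytic subunit of polymerase alpha, was higher on day 3 by 0.41 ± 0.13 (adjusted p = 0.0372), a call lost without any 1 of 5 arrays. Prim1, the catalytic primase subunit, was not called, with a difference of 0.29 ± 0.13 (adjusted p = 0.128), and Pola2 and the polymerase delta subunits Pold1 and Pold2 had differences of -0.07 ± 0.14, -0.15 ± 0.24 and -0.35 ± 0.16, none of them called.

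The clamp, its loader and the single-strand binding proteins held 1 called member of 7. On day 3 against day 0 that was 14.3%, near the 13.6% of all genes tested that were higher. Rfc5, a subunit of the clamp loader, had signals of 427, 445 and 436 on day 0, 510.3, 618 and 452 on day 1 and 818, 708 and 790.3 on day 3. All day 3 mice were above the others, and the change against day 0 was 0.82 ± 0.14 (adjusted p = 0.00146). The other loader subunits Rfc2, Rfc3 and Rfc4 had differences of 0.04 ± 0.11, 0.34 ± 0.15 and 0.20 ± 0.20 and were not called. Rfc3 had signals of 389, 336 and 273 on day 0, 395, 372 and 400.4 on day 1 and 453, 397 and 405 on day 3, and its day 3 and day 1 mice overlapped.

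Pcna, the sliding clamp, had signals of 10934, 14623 and 13208 on day 0, 13365, 16180.5 and 13086 on day 1 and 11908, 11432 and 12495 on day 3. Day 0 overlapped with both primed days, and the difference on day 3 against day 0 was -0.10 ± 0.12 (adjusted p = 0.56), with a 95% interval of -0.37 to 0.16. The day 3 mice all lay below the day 1 mice, with a difference of -0.24 ± 0.12 (adjusted p = 0.19), not called. Pcna was measured by 1 probe set past the filter on presence, so no other probe set bears on it. Rpa1, the large subunit of the single-strand binding protein, had signals of 3825, 4366 and 4110.4 on day 0, 2772, 3641 and 3508 on day 1 and 3262, 3435 and 3281 on day 3. Both primed days lay below day 0 without overlap, with differences of -0.32 ± 0.12 on day 1 against day 0, with an adjusted p of 0.0646, and -0.30 ± 0.12 on day 3 against day 0, with an adjusted p of 0.085, not called. A second probe set of Rpa1 had a difference of 0.11 on day 3 against day 0, of the other sign. Rpa2, another subunit, had a difference of 0.07 ± 0.14.

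Lig1, the ligase that joins Okazaki fragments, had signals of 584, 546 and 526 on day 0, 632, 674 and 606 on day 1 and 789.7, 890.1 and 1119.5 on day 3. Day 3 stood above both other days, and the change against day 0 was 0.74 ± 0.14 (adjusted p = 0.00304). Fen1, the nuclease that trims the flaps before Lig1 acts, had signals of 730.1, 813 and 709 on day 0, 964, 1035 and 888 on day 1 and 931, 1009 and 824 on day 3. Both primed days lay above day 0 without overlap, yet the differences of 0.36 ± 0.13 on day 1 against day 0, with an adjusted p of 0.0514, and 0.29 ± 0.13 on day 3 against day 0, with an adjusted p of 0.108, did not pass. By another probe set of Fen1 the day 1 mice overlapped with day 0. Put in its place, that probe set had differences against day 0 of 0.05 on day 1 (adjusted p = 0.775) and 0.24 on day 3 (adjusted p = 0.176).

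Behind the fork, Uhrf1 and Chaf1b were higher on day 3 than on day 0, 2 of 4 members tested, beside 13.6% of all genes tested. Uhrf1, which brings the maintenance methyltransferase to newly copied DNA, had signals of 464, 400.3 and 441 on day 0, 479.5, 432 and 439.9 on day 1 and 978, 851 and 857 on day 3. Day 1 overlapped with day 0, and day 3 was higher by 1.04 ± 0.12 (adjusted p = 0.000137) against day 0. Chaf1b, a subunit of the histone chaperone CAF-1, had signals of 136, 147 and 129.7 on day 0, 235, 233 and 134 on day 1 and 284, 256 and 247 on day 3. Mouse 3 of day 1 lay among the day 0 mice and the other day 1 mice near day 3, and the differences were 0.50 ± 0.22 on day 1 against day 0, with an adjusted p of 0.0992, and 0.93 ± 0.22 on day 3 against day 0, with an adjusted p of 0.00862. Without that mouse the day 1 change of Chaf1b was 0.77 (adjusted p = 0.00462). Dnmt1, the methyltransferase itself, was not called against day 0, with a difference of -0.45 ± 0.17 (adjusted p = 0.0593) for day 1 and one of 0.15 ± 0.17 for day 3, and was higher on day 3 than on day 1 by 0.61 ± 0.17 (adjusted p = 0.0318). Slbp, which binds the stem-loop of histone transcripts, had a difference of -0.19 ± 0.11 (adjusted p = 0.219) on day 3 against day 0 by the brightest of its probe sets. A second probe set of Slbp had signals of 545, 490.3 and 555 on day 0, 210.1, 283 and 443 on day 1 and 320.4, 277 and 346 on day 3, with changes of -0.83 on day 1 and -0.76 on day 3, and was called lower on both days when every probe set was tested.

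**Figure D3:**
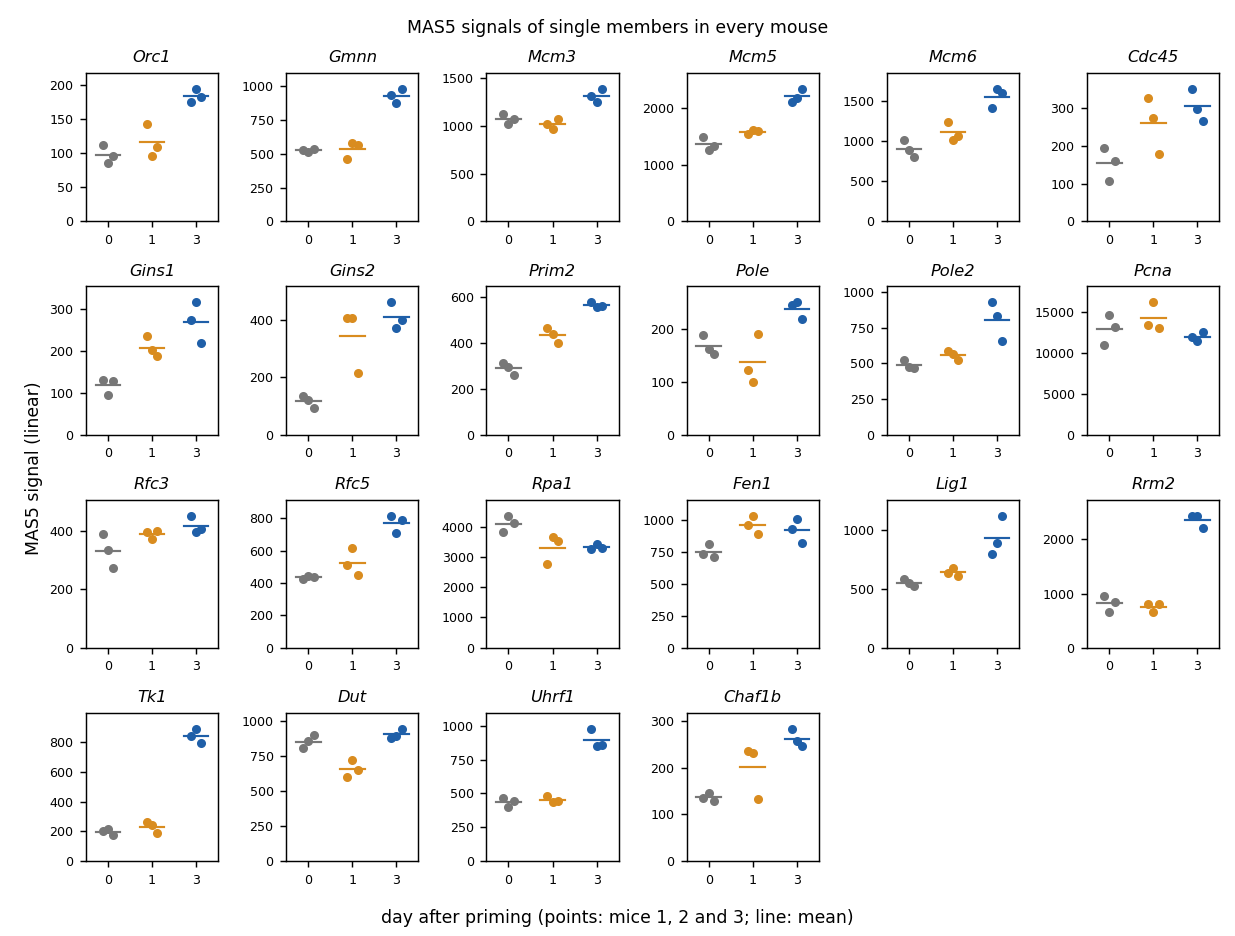
MAS5 signal on a linear axis from 0 in each mouse on days 0, 1 and 3 for the 22 members whose signals are given one by one, with the mean of each day as a line. Tk1, Rrm2 and Uhrf1 were near their day 0 signals on day 1 and higher in all 3 mice on day 3, while Gins2, Gins1 and Prim2 were higher on day 1 already. Pcna on both primed days overlapped with day 0, and its day 3 signals lay below those of day 1.

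For 22 members more than 1 probe set passed the filter. The members called on day 3 against day 0 had 8 such further probe sets, and all 8 were called with the same sign when every probe set was tested. Among members not called in a comparison by the probe set used, a further probe set was called for Mcm4, higher on day 3 than on day 0 by 0.36 (adjusted p = 0.0451), for Dnmt1, lower on day 1 than on day 0 with a change of -0.60 (adjusted p = 0.0342), for Prim1, higher on day 3 than on day 1 by 0.55 (adjusted p = 0.0315), and for Slbp on both primed days. Opposite signs on day 3 against day 0 were seen between the probe sets of Cdt1, Pold1, Rfc2, Rpa1 and Rpa2, none of them called by either probe set. Rrm2, Mcm5, Pold1 and Fen1, and Mcm3 and Mcm7, were measured by probe sets of the kinds that can share transcripts with other genes. With other probe sets in their place Rrm2 was higher on day 3 than on day 0 by 1.45 (adjusted p = 2.54e-05) and Mcm5 by 0.47 (adjusted p = 0.0123), while the calls of Mcm5 and Mcm3 on day 3 against day 1 were lost.

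Other genes of the pathway were taken from 2 lists that hold no member. Of 39 further replication factors, 36 were tested, with a median change of 0.13 on day 3 against day 0. In that comparison 7 (19.4%) were higher and 1 was lower, beside 13.6% and 12.5% of all genes tested. Top2a, the topoisomerase that untangles copied chromosomes, had signals of 781, 687 and 646 on day 0, 598, 617 and 712 on day 1 and 1784, 2010.3 and 2022 on day 3. Like Tk1 it was high in the day 3 mice and not in the day 1 mice, with a change of 1.46 ± 0.13 (adjusted p = 1.47e-05) on day 3 against day 0. Dscc1, a subunit of an alternative clamp loader, was higher by 1.41 ± 0.31, Dna2, a nuclease of Okazaki fragments, by 1.10 ± 0.20, and Clspn, a fork protein, by 1.00 ± 0.18. Hells, a chromatin remodeler, was higher by 0.98 ± 0.16 and Asf1b, a histone chaperone, by 0.79 ± 0.14. Timeless, a fork protection factor, was the 1 gene lower, with a change of -0.49 ± 0.14 (adjusted p = 0.0253). On day 1, 2 of these factors were higher (Dscc1 and Hells) and 2 were lower (Cdc7 and Topbp1, named after their values were seen). The 2 higher were 5.56% of those tested, beside 10.7% of all genes higher and 17.9% lower.

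Of 36 further enzymes of nucleotide synthesis and salvage, 34 were tested, with a median difference of 0.05 on day 1 and 0.16 on day 3 against day 0. Against day 0, day 1 had 10 of them (29.4%) higher and 3 lower, beside 10.7% and 17.9% of all genes tested. Day 3 had 7 (20.6%) higher and 4 lower, beside 13.6% and 12.5% of all genes. Between day 3 and day 1 there was 1 (2.94%) higher and 3 lower, beside 9.66% and 4.54% of all genes. Dck, the deoxycytidine kinase of the salvage pathway, had signals of 2215, 1582 and 2018 on day 0, 5344, 4247 and 6122 on day 1 and 4074, 3812 and 4617 on day 3. It was higher by 1.43 ± 0.16 on day 1 against day 0, with an adjusted p of 9.1e-05, and 1.11 ± 0.16 on day 3 against day 0, with an adjusted p of 0.000492. Upp1, a uridine phosphorylase, was higher by 1.75 ± 0.22 on day 1 against day 0, with an adjusted p of 0.000239, and 0.75 ± 0.22 on day 3 against day 0, with an adjusted p of 0.0284, and was lower on day 3 than on day 1 (adjusted p = 0.0125). Dctd, which deaminates dCMP, was higher on day 3 by 1.68 ± 0.22, Nme1, a nucleoside diphosphate kinase, by 0.53 ± 0.12, and Mthfd2, a mitochondrial folate enzyme, by 0.52 ± 0.14. Cda, the cytidine deaminase, was called present on 0 of 3 arrays of day 0, 2 of day 1 and 3 of day 3, with signals of 79.4, 93.5 and 48.8 on day 0, 112.5, 70.9 and 137 on day 1 and 232, 273 and 210.3 on day 3. By the means of the log2 signals it was at least 3.33-fold higher on day 3 than on day 0 (adjusted p = 0.00147). Cda entered the test only through day 3, where it was high, so the filter favoured this call, which is 1 of the 7. Lower on day 3 were Dguok, the mitochondrial deoxyguanosine kinase (-0.56), Shmt1, a serine and folate enzyme (-0.54), Prps2, which makes phosphoribosyl pyrophosphate (-0.53), and Pnp, a purine phosphorylase (-0.44). The differences between the lists and the members were not tested.

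**Figure D4:**
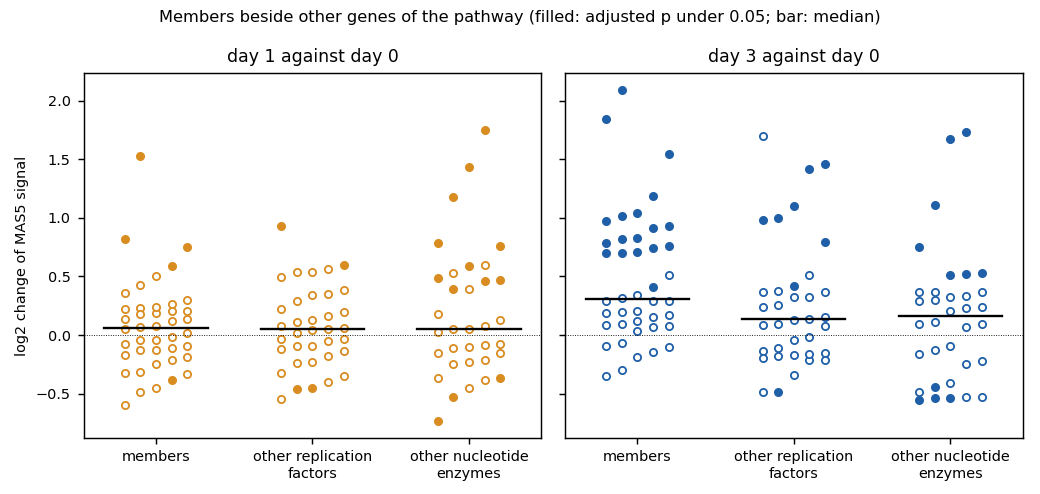
Log2 change of the MAS5 signal on day 1 (left) and day 3 (right) against day 0 for the 42 members and the 2 lists of other pathway genes, 1 point a gene, spread sideways for legibility. Filled points passed an adjusted p of 0.05 and bars are medians, which on day 3 were 0.30 for the members and 0.13 and 0.16 for the other replication factors and nucleotide enzymes.

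The SVF is a mixture, and the sums of its cell type markers differed between the days. Fewer cells of a type and less RNA in each cell cannot be told apart in such bulk samples. Against day 0, 10.7% of all genes tested were higher and 17.9% lower on day 1, and 13.6% were higher and 12.5% lower on day 3. The counts of called markers below stand beside these shares, and each list is short. The neutrophil list, summed over its 6 measured markers, reached 1792 to 1972 on day 0, 39733 to 70166 on day 1 and 8988 to 20096 on day 3, with 5 of 6 markers higher on both primed days. The lowest day 1 sum was in mouse 3. Among the day 1 signals of the 42 members, the lowest was in mouse 1 for 14, in mouse 2 for 12 and in mouse 3 for 16. The highest was in each of the 3 mice for 14 members. These counts pool members that rose with members that fell, so they cannot show whether mouse 3 lay nearer to day 0. Of the markers of neutrophil precursors, bone marrow cells that divide, Elane, Prtn3, Ctsg and Camp were called present on 0 arrays and 1 of 7, Ngp, was tested. Ngp was called present on 7 arrays, with signals of 67.1, 64.6 and 4.92 on day 0, 122.5, 88.2 and 371 on day 1 and 72.9, 61.1 and 71.0 on day 3. Ngp was higher on day 1 than on day 0 by 2.52 ± 0.85 (adjusted p = 0.0452). Its signal of 4.92 in mouse 3 of day 0 lay below 10.1, the lowest signal called present on that array, so the size of this change is uncertain. The sum of the list was 94.7 to 248 on day 0, 259 to 901 on day 1 and 270.2 to 335 on day 3. Monocyte markers summed to 25712 to 30966 on day 0, 39703 to 44716 on day 1 and 37280.1 to 38904 on day 3. Against day 0, 3 of 4 tested were higher on each primed day, and 1 was lower on day 1. Macrophage markers summed to 34001 to 37304 on day 0, 38617 to 45172 on day 1 and 40427 to 50934 on day 3. They went both ways, with 3 of 6 higher and 1 lower on each primed day against day 0. The adipose progenitor list summed to 131213 to 140158 on day 0, 105772 to 125354 on day 1 and 112083 to 117772 on day 3. All 11 of its markers named on the array passed the presence filter, as did all 6 endothelial markers. Of the 11, 0 were higher and 3 lower on day 1 against day 0, and 1 was higher and 4 lower on day 3. Endothelial markers summed to 16042 to 20256 on day 0, 11872 to 13352 on day 1 and 13446 to 15133 on day 3. Of these 6, 4 were lower on day 1 and 3 on day 3, with 0 higher. B cell markers summed to 9264 to 14293 on day 0, 4124 to 8925 on day 1 and 2828 to 5420.0 on day 3, and T cell markers to 13179 to 16037 on day 0, 3597 to 9658 on day 1 and 4629.7 to 6586 on day 3. Of 3 tested germinal centre B cell markers, 0 were higher and 1 was lower on day 3 than on day 0. Ptprc, a marker of all leukocytes, had signals of 15993 to 18453 on day 0, 12592.5 to 16615 on day 1 and 11763 to 14280 on day 3. It was lower on day 3 than on day 0 (log2 change -0.43) and not called on day 1. Of 3 pericyte and smooth muscle markers tested, 3 were lower on day 1 and 2 on day 3. Of 4 mast cell markers, 0 were lower on day 1 and 3 on day 3. In both lists 0 were higher against day 0. The part of these changes in the members' signals was not tested.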

How the data were processed

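Total RNA (250 ng) of SVFs from 9 mice, 3 on each of days 0, 1 and 3, was hybridised to Affymetrix mouse arrays. The authors summarised the probe intensities with MAS5 and scaled each array. The deposited files hold the MAS5 signal, a detection call and a detection p-value for each of 45101 probe sets, and the deposited series table equals them within 5e-04 percent. Of the probe sets, 34945 carried 1 gene symbol in the platform annotation, 932 several and 9160 none, and 64 were controls. A single symbol and a present call in all 3 mice of some day were required, and a gene was measured by its brightest probe set. Log2 signals, with no offset, were fitted in R 4.3.3 with limma 3.58.1 (lmFit and eBayes with a variance trend) with day as the factor and 6 residual degrees of freedom. Tests were two-sided, and the fit was tested on simulated data. The members, the lists, the motifs and the rule for the genes given by array were chosen with earlier results of these data known. By that rule, signals are printed for the members of each role with the largest changes on day 3, for members called against the main direction, and for Pcna and Gmnn. The alternatives changed 1 step at a time: the scaling (quantile or median centring), an offset of 16 or 64, the presence filter, the choice of probe set, the variance model, array weights, the arrays in the fit (each left out in turn, or the 6 of a comparison), a block for the replicate number, the limits for a call, and the test, as the repeated-measurements ANOVA with a 2-fold limit that the study's methods name or as a one-way ANOVA with that limit, each also after Benjamini-Hochberg adjustment. Arrays had no labelled batch. Precision is limited by 3 arrays a day. The genome build of the authors' files is not given in the sources used here.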

Additional observations from a re-analysis of the deposited data

How the results depend on the processing

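No result changed sign among called values. Leaving out single arrays gave 3 to 7 members higher and 0 to 6 lower on day 1, 15 to 19 higher and 0 to 1 lower on day 3 against day 0, and 6 to 17 higher and 0 to 1 lower on day 3 against day 1. Without mouse 3 of day 1, 7 members were higher and 6 lower on day 1. The 18 calls higher on day 3 against day 0 became 6 with a 2-fold limit, 6 and 4 with the methods' repeated-measurements ANOVA and the same limit, before and after Benjamini-Hochberg, and 6 and 5 with a one-way ANOVA in its place; 15 of the 18 stayed called in every fitted alternative, all but Cdc45, Mcm10 and Pola1. The 0 lower became 1 with the mean of the probe sets (Slbp), array weights or only the 6 arrays compared (Rpa1). The 17 calls higher on day 3 against day 1 became 10 with quantile normalization, 5 with median centring, 2 with a 2-fold limit and in every form of the ANOVA, and 5 at an adjusted p under 0.01. The 0 lower became 1 with quantile normalization, median centring or array weights (Pold2). On day 1 the 4 higher became 13 with median centring, 7 with array weights, 1 with a 2-fold limit and in every form of the ANOVA, and 2 at an adjusted p under 0.01. The 1 lower (Dut) became 0 with median centring, only the 6 arrays compared, a 2-fold limit, an adjusted p under 0.01 or any ANOVA, and 2 with the mean of the probe sets or array weights. Median centring moved the median gene on day 1 from -0.13 to 0.13, and on day 3 against day 1 from 0.09 to -0.08 (log2), so counts in both comparisons with day 1 moved with the scaling. By the study's methods the mice of each day were different individuals. Same-numbered arrays of different days correlated at -0.147 to 0.331 in their deviations from the day means, and differently numbered ones at -0.402 to 0.308. With 3 arrays a day these ranges cannot decide whether the replicate numbers mark arrays processed together. With the replicate block 3 members were lower on day 1 and no other count of member calls moved by over 1.5 times.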
